A study of Mus musculus with 12 samples.

Results

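The genes Mbnl1, Mbnl2, Mbnl3, Celf1, Celf2, Rbfox2, Rbm20, Rbm24, Ptbp1 and Ptbp2 encode RNA-binding proteins that choose between alternative exons while muscle forms. These 10 genes, of 27306 gene symbols on the array, were chosen by name, and every probe that the deposited table gives 1 of the 10 symbols was kept, which made 32 of 56605 probes. RNA came from C2C12, a myoblast line of C3H mouse muscle that fuses into myotubes when serum is lowered. The cells received siControl or siBach1, the latter an siRNA against the transcriptional repressor Bach1, and 24 hours later, at confluence, the medium was changed to DMEM with 2% horse serum. RNA was taken at day 0, without induced differentiation, and at day 2, which gave siControl day 0, siBach1 day 0, siControl day 2 and siBach1 day 2, with 3 arrays of each. All 4 groups share the parental line and a transfection, and no untransfected cells were measured. The paper used 1 siRNA against Bach1 on the arrays, so other effects of its sequence and loss of Bach1 cannot be told apart. The labels number 3 replicates of each group and do not say whether they were separate cultures, so p-values measure the spread between these samples.

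Alternative splicing joins the exons of a transcript in different combinations, and regulators bound near an exon favour its inclusion or its skipping. Muscle switches many exons of sarcomere, ion channel and adhesion genes from a fetal to an adult form as it matures. Muscleblind-like proteins (Mbnl) and Celf proteins act on many of the same exons in opposite directions, and loss of free Mbnl with gain of Celf1 underlies the splicing defects of myotonic dystrophy. Ptbp1 holds muscle and neuronal exons out of transcripts in cells that are not muscle or neurons, whereas Rbfox2, Rbm24 and Rbm20 drive muscle forms. The arrays measured the abundance of transcripts, with 1 to 10 probes a gene, and not the use of exons.

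Values are log2 signals relative to the 75th percentile of the same array, so that 0 is a signal at that percentile, and a difference of 1 is a doubling. Signals of different probes were not set against each other, except to choose a probe for each gene and to sum lists of markers. In such a sum the brightest probes weigh most. A probe was tested if it was well above background on the 3 arrays of at least 1 group. This left 29664 probes in all and 27 of the 32 member probes, with at least 1 for each of the 10 genes, and 24 member probes were well above background on all 12 arrays. The main probe of a gene is its tested probe with the highest mean signal. Of the 32 probes, 20 are assigned to a RefSeq mRNA of the gene and all of these were tested, while 12 are assigned to a cDNA clone or EST, of which 7 were tested. A probe passed when its adjusted p was under 0.05 in limma, without pairing arrays by replicate number, after Benjamini-Hochberg adjustment over the 29664 probes. In bulk RNA, fewer cells that express a gene and less RNA in each cell cannot be told apart.

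Bach1 was 3.42-fold lower in siBach1 at day 0 and 3.91-fold lower at day 2 (limma adjusted p = 1.2e-05 and 1.4e-05), and its target Hmox1 was 9.86-fold and 8.72-fold higher. An array had 47.6% to 58.9% of its probes well above background. The array of siBach1 day 0 replicate 3 stood apart most: it had the fewest probes above background, the lowest 75th percentile signal (325.5, against 345.0 to 534.4) and the lowest mean correlation with its group (0.9861, against 0.9885 to 0.9932 for the other arrays). Replicates 1 and 2 were on slide 1 and replicate 3 on slide 2, and each group kept to 1 column of the slides, so that column and group cannot be told apart. The myoblast and myotube markers Myod1, Cdh15 and Des were well above background on every array, as were 8 of the 9 others, and Myf5 was not tested. Markers of other cell types were read as well: in each group 3 or 4 of 7 adipocyte, 3 or 4 of 6 osteoblast, 4 of 6 neuronal and 3 or 4 of 6 blood and endothelial markers were well above background on all 3 arrays, while Adipoq, Syt1, Cdh5 and Kdr were above it on no array. The summed level of the muscle markers was 7.27 to 7.41 in siControl and 7.43 to 7.59 in siBach1 at day 0, and 10.75 to 10.78 and 10.08 to 10.28 at day 2. That of 10 cell cycle markers was 8.08 to 8.18 and 7.71 to 7.76 at day 0, and 5.67 to 6.45 and 5.64 to 5.99 at day 2. Both moved with day and, to a smaller extent, with siRNA, and their part in the results was not tested.

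Between day 0 and day 2 the regulators moved in both directions. In siControl cells, 22 of the 27 member probes passed between day 0 and day 2, against 53.4% of all probes. Of these 12 were higher at day 2, as were 24.6% of all probes, and 10 were lower, as were 28.7%. By main probes, Rbm24, Rbm20, Rbfox2 and Celf2 rose and Ptbp1, Ptbp2, Mbnl3, Celf1, Mbnl1 and Mbnl2 fell. Of the member probes 10 both passed and changed at least 2-fold, as did 20% of all probes. Arrays of the 2 days did not overlap for 21 of the 27, against 61.9% of all probes. In siBach1 cells, 15 member probes passed, against 56.1% of all probes. These were 7 higher and 8 lower, against 23.8% and 32.3% of all probes, and 9 passed with a change of at least 2-fold, against 20.5%. Without siBach1 day 0 replicate 3, 18 passed (16436 of all 29664 probes), and 18 with replicate number as a block (18986 of all probes). The groups did not overlap for 16, against 61.3% of all.

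**Figure D1:**
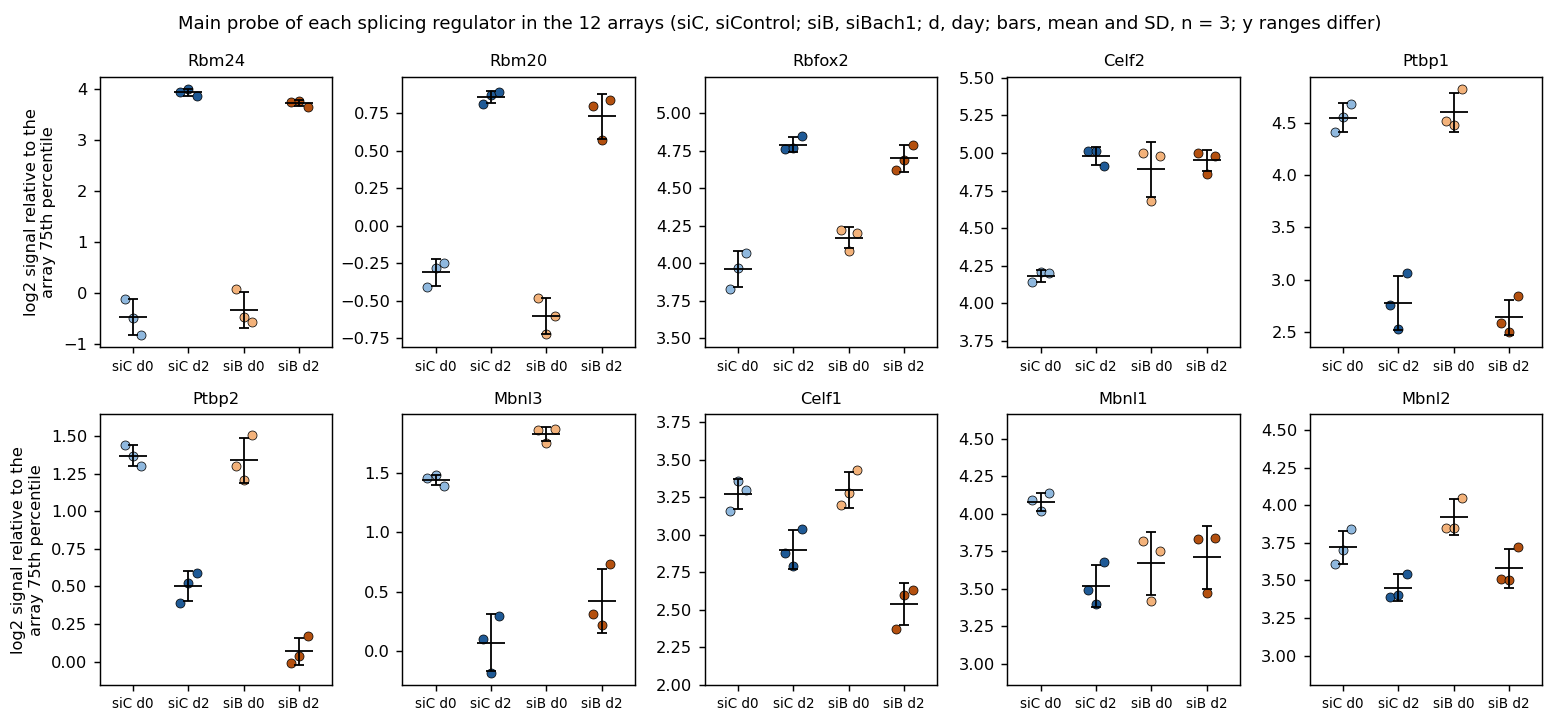
Signals of the main probe of each of the 10 genes on the 12 arrays, as log2 relative to the array's 75th percentile (y axis, range differs between panels), by siRNA and day (x axis). Points are arrays, and bars are the mean and SD of 3 arrays. Rbm24 lies between -0.81 and 0.08 on the day 0 arrays and between 3.66 and 4.0 on the day 2 arrays, while Ptbp1 lies between 4.41 and 4.82 and then between 2.50 and 3.06.

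**Figure D2:**
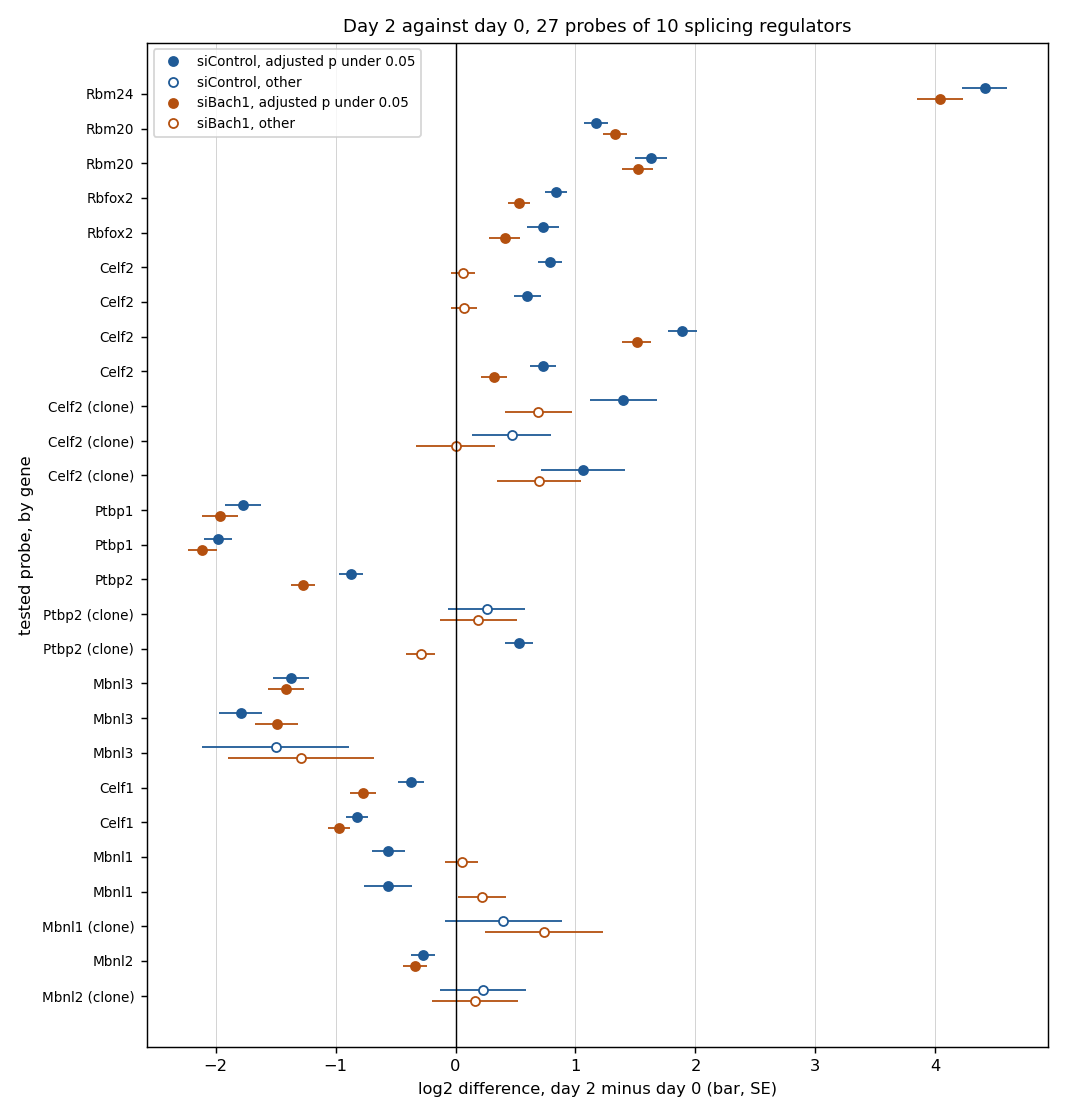
Log2 difference between day 2 and day 0 (x axis; bars, SE) of the 27 tested probes, by gene (y axis), in siControl and siBach1 cells. Filled points passed at an adjusted p under 0.05. Differences run from -1.98 for a Ptbp1 probe to 4.41 for Rbm24 in siControl, and the Celf2 and Mbnl1 main probes passed in siControl and lay at 0.06 and 0.05 in siBach1 (0.36, which passed, for Celf2 after quantile normalization).

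The largest rise was that of Rbm24, a protein with an RNA recognition motif that is enriched in heart and skeletal muscle and promotes inclusion of muscle exons. Its only probe read -0.11, -0.49 and -0.81 in siControl and 0.08, -0.47 and -0.56 in siBach1 at day 0. At day 2 the 3 arrays read 3.94, 4.0 and 3.87 in siControl and 3.75, 3.77 and 3.66 in siBach1. Every day 2 array was above every day 0 array. The rise was 21.2-fold in siControl (log2 4.41, SE 0.19, limma adjusted p = 6.5e-08) and 16.5-fold in siBach1 (log2 4.04, SE 0.19, limma adjusted p = 1.2e-07). Rbm20 represses exons of titin and is mutated in forms of dilated cardiomyopathy. The main Rbm20 probe read -0.41, -0.28 and -0.25 in siControl and -0.48, -0.72 and -0.60 in siBach1 at day 0, and 0.81, 0.87, 0.89 and 0.80, 0.57, 0.84 at day 2. It rose 2.25-fold in siControl and 2.52-fold in siBach1 (limma adjusted p = 4e-06 and 1.7e-06), and a second probe of the gene rose 3.08-fold and 2.86-fold. The days did not overlap for either probe.

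Rbfox2, which binds next to many muscle and neuronal exons and acts on Mef2d among others, rose by less. Its main probe read 3.83, 3.97 and 4.07 in siControl at day 0 and 4.76, 4.77 and 4.85 at day 2. In siBach1 it read 4.22, 4.08 and 4.20, then 4.62, 4.69 and 4.79. These are rises of 1.79-fold and 1.45-fold (log2 0.84 and 0.53, SE 0.09, limma adjusted p = 1.7e-05 and 0.00038). The other Rbfox2 probe rose 1.66-fold in siControl and 1.33-fold in siBach1, the latter with an adjusted p of 0.017 in limma that became 0.061 without siBach1 day 0 replicate 1 and 0.066 without siBach1 day 2 replicate 3. Whether the rise differed between siRNAs was not settled, with a difference of -0.31 for the main probe (SE 0.12, limma adjusted p = 0.18).

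Celf2, a Celf protein with roles in heart, brain and T cells, had 10 probes, of which 7 were tested. On its main probe, A_55_P2005570, siControl arrays read 4.14, 4.21 and 4.20 at day 0 and 5.01, 5.01 and 4.91 at day 2, a rise of 1.73-fold (log2 0.79, SE 0.10, limma adjusted p = 5.2e-05). In siBach1 the arrays read 5.00, 4.68 and 4.98 at day 0 and 5.00, 4.86 and 4.98 at day 2, with a difference of 0.06 (SE 0.10, limma adjusted p = 0.63). After quantile normalization that difference was 0.36 and passed (limma adjusted p = 0.0055). The siBach1 arrays of day 0 thus overlapped those of day 2 in either siRNA and lay above all 3 siControl arrays of day 0. In siControl, 6 of the 7 probes rose, by 1.51-fold to 3.72-fold, and the other gave 0.47 (SE 0.33, limma adjusted p = 0.26). In siBach1, A_52_P243542 rose 2.85-fold and A_55_P2740768 1.25-fold, and the latter lost its call (adjusted p between 0.068 and 0.1 in limma) without siBach1 day 0 replicate 1 or 3 or siBach1 day 2 replicate 1 or 3. The clone probe A_55_P2943476 gave 0.69 in siBach1 (SE 0.28, limma adjusted p = 0.057, and 0.01 with the replicate block), and 1.01 without siBach1 day 0 replicate 3 (0.0038). A further one, A_55_P2720690, lost its call in siControl (adjusted p between 0.059 and 0.077) without siControl day 0 replicate 1 or 2 or siControl day 2 replicate 2 or 3, and its 0.70 in siBach1 (0.11) became 1.15 (0.0032) without siBach1 day 0 replicate 3. Of the 3 untested Celf2 probes, 2 were above background on no array, and A_55_P2720685 was above it on 1 siControl and 2 siBach1 arrays of day 2 and on none of day 0. The untested probe of Mbnl3 was above background on 2 siControl and 1 siBach1 arrays of day 0 and on 1 siBach1 array of day 2, and that of Ptbp2 on 1 siBach1 array of day 2.

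Ptbp1, the polypyrimidine tract-binding protein that represses muscle exons, fell most by main probe. Its main probe read 4.41, 4.56 and 4.68 in siControl and 4.52, 4.48 and 4.82 in siBach1 at day 0. At day 2 it read 2.76, 2.53 and 3.06, and 2.59, 2.50 and 2.84. Every day 2 array lay below every day 0 array. It fell 3.41-fold in siControl and 3.89-fold in siBach1 (limma adjusted p = 5.2e-06 and 2.6e-06), and the other probe fell 3.95-fold and 4.31-fold with the same separation of the days (r = 0.99 between probes over 12 arrays). Ptbp2, the neuronal paralog that Ptbp1 keeps low, fell as well on its mRNA probe A_51_P363818. That probe read 1.44, 1.37 and 1.30 in siControl and 1.30, 1.21 and 1.51 in siBach1 at day 0, and 0.39, 0.52, 0.59 and -0.01, 0.04, 0.17 at day 2. The falls were 1.82-fold and 2.42-fold (limma adjusted p = 3.4e-05 and 2.4e-06). The tested clone probes of Ptbp2 went otherwise: A_52_P593110 rose 1.44-fold in siControl (limma adjusted p = 0.0029) with a difference of -0.29 in siBach1 (adjusted p = 0.056, 0.022 with the replicate block, and 0.0049 at -0.48 after quantile normalization), and A_52_P422088 passed in neither. Their correlation with the mRNA probe over the 12 arrays was -0.23 and -0.25, so probes that bear the name Ptbp2 did not report 1 common level.

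RefSeq gives the start sites of 8 of the 10 genes in a table of 32851 mouse promoters (build GRCm38.p6). The 250 bases before the start are shown for the genes with the largest rise and the largest fall, on the plus strand and in lower case, since none of 3 motifs searched on both strands falls in them. Rbm24 is at chr13:46418050-46418299 and Ptbp1 at chr10:79854182-79854431.
Rbm24: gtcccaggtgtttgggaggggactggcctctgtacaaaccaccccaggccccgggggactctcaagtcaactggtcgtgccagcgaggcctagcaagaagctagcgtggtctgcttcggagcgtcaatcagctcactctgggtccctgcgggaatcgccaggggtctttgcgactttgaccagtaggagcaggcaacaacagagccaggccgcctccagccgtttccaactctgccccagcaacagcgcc
Ptbp1: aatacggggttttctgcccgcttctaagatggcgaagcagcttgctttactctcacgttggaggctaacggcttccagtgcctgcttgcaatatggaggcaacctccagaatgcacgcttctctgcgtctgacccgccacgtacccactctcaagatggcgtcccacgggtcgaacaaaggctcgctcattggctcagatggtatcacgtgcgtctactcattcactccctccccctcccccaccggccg
The G and C share of these windows was 62.4% for Rbm24 and 57.6% for Ptbp1, with a median of 52.4% over the table. The motifs were CAGCTG, an E-box form that myogenic factors bind and that reads the same on both strands, CTATTTATA, a Mef2 site, and TGAGTCAGC, a Maf recognition element of the kind that Bach1 binds. From 250 bases before to 50 after the start, 16.3% of all promoters hold the first, 0.429% the second and 0.414% the third. Among the 13 promoters of the 8 genes, 1 held CAGCTG and none held the others. That promoter was Ptbp1's, at bases 40 to 45 after its start, in capitals in the 30 bases at chr10:79854452-79854481.
Ptbp1 E-box: tgacggccgtcccgcccaaCAGCTGtctgc
A match is a run of letters and not a measured site, and its absence says nothing of a factor.

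Mbnl3 is the muscleblind-like gene expressed mainly in proliferating myoblasts and fetal tissues. It fell in both siRNAs. The main probe read 1.46, 1.48 and 1.39 in siControl and 1.86, 1.75 and 1.87 in siBach1 at day 0, and 0.10, -0.18, 0.30 and 0.31, 0.22, 0.73 at day 2. No day 2 array reached a day 0 array. The falls were 2.59-fold and 2.65-fold (limma adjusted p = 2.3e-05 and 1.8e-05). A second probe, A_66_P140335, fell 3.46-fold and 2.81-fold, or by 0.74 and 0.89 on the log2 scale after the normexp background correction against 1.79 and 1.49 before it. The dim probe A_51_P485985 gave -1.50 and -1.29 (SE 0.61, limma adjusted p = 0.059 and 0.097), and at day 2 it was above background on 1 of 3 siControl arrays. Without siControl day 2 replicate 1, the values were -2.29 (0.0015) and -1.29 (0.015), without siBach1 day 2 replicate 2 they were -1.50 (0.043) and -1.80 (0.033), and after normexp -0.50 (0.073) and -0.64 (0.03).

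Mbnl1, the main muscleblind-like protein of adult muscle, fell in siControl but gave no call in siBach1. Its main probe read 4.09, 4.02 and 4.14 in siControl at day 0, above all other arrays, and 3.49, 3.40 and 3.68 at day 2. In siBach1 it read 3.82, 3.42 and 3.75, then 3.83, 3.47 and 3.84. The fall in siControl was 1.47-fold (log2 -0.56, SE 0.14, limma adjusted p = 0.0055), while the difference in siBach1 was 0.05 (SE 0.14, limma adjusted p = 0.81). After quantile normalization the latter was 0.28 (limma adjusted p = 0.085). Whether the change differed between siRNAs was not settled, with a difference of 0.60 (SE 0.19, limma adjusted p = 0.10, and 0.019 with the replicate block). The second mRNA probe of Mbnl1 gave the same value in siControl (-0.56, SE 0.20, limma adjusted p = 0.037), which did not pass without siControl day 0 replicate 1 or 3, siControl day 2 replicate 1 or 2, or siBach1 day 2 replicate 1 (adjusted p between 0.051 and 0.14). In siBach1 it gave 0.22 (SE 0.20, limma adjusted p = 0.39, and 0.038 with the replicate block). The dim clone probe of Mbnl1 passed in no comparison, but without siBach1 day 0 replicate 3 it gave 1.26 between the days in siBach1 (limma adjusted p = 0.031) in place of 0.74.

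The third gene of the family, Mbnl2, which acts with Mbnl1 in muscle and leads in brain, fell the least. The main probe read 3.61, 3.70 and 3.84 in siControl and 3.85, 3.85 and 4.05 in siBach1 at day 0, and 3.39, 3.40, 3.54 and 3.51, 3.50, 3.72 at day 2. The falls were 1.21-fold and 1.26-fold (limma adjusted p = 0.043 and 0.015). The call in siControl was lost without any of 8 arrays (adjusted p up to 0.14: siControl day 0 replicates 2 and 3, siControl day 2 replicates 1 and 2, siBach1 day 0 replicates 1 and 2, siBach1 day 2 replicates 1 and 2) and that in siBach1 without siBach1 day 0 replicate 3 or siBach1 day 2 replicate 1 or 2 (adjusted p between 0.053 and 0.056). Quantile normalization left differences of -0.18 and -0.10, with adjusted p = 0.098 and 0.32 in limma. Its clone probe passed in no comparison and read -0.12 on siBach1 day 0 replicate 3 against -1.72 and -1.71 on the other arrays of that group. Without that array it gave 0.69 between the days in siBach1 (limma adjusted p = 0.0042) in place of 0.16.

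Celf1, or CUG-binding protein, favours fetal exons and also speeds the decay of mRNAs with GU-rich elements. Its main probe read 3.16, 3.36 and 3.30 in siControl and 3.20, 3.28 and 3.43 in siBach1 at day 0, and 2.88, 2.79, 3.04 and 2.37, 2.60, 2.63 at day 2. All siBach1 arrays of day 2 lay below all siControl arrays of day 2. The falls were 1.29-fold in siControl (limma adjusted p = 0.014, and 0.055 and 0.054 without siControl day 0 replicate 2 and siControl day 2 replicate 2) and 1.70-fold in siBach1 (limma adjusted p = 0.00014). The other Celf1 probe fell 1.76-fold and 1.96-fold (limma adjusted p = 3.5e-05 and 1e-05).

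The order of the groups on the main probes showed 3 forms. For Rbm24, Rbm20 and Rbfox2, both day 2 groups came above both day 0 groups, and for Ptbp1, Ptbp2, Mbnl3 and Celf1 both came below, with no overlap between the days. Celf2 had siControl day 0 alone at the bottom, 0.70 below siBach1 day 0, with the other 3 groups overlapping on this scale. Mbnl1 had siControl day 0 alone at the top with the other 3 overlapping, and Mbnl2 overlapped between siControl day 0 and siBach1 day 2.

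Before differentiation, silencing of Bach1 went with a higher level of Celf2. At day 0, 6 of the 27 passed and all 6 were higher in siBach1. Of all probes 17.1% passed, 8.8% as higher and 8.32% as lower, and 2.79% passed with a change of at least 2-fold, as did 1 member probe. Of these, 5 were Celf2 probes and the other was the Ptbp2 clone probe A_52_P593110. The 4 mRNA probes of Celf2 were higher by 1.37-fold to 1.63-fold. A_55_P2005570 gave 0.70 (SE 0.10, limma adjusted p = 0.00083) and A_55_P2740768 gave 0.71 (SE 0.11, limma adjusted p = 0.0019). A_52_P243542, at -2.05, -2.03 and -2.05 in siControl and -1.26, -1.44 and -1.53 in siBach1, gave 0.64 (SE 0.12, limma adjusted p = 0.005). A_52_P100909, at 0.35, 0.47, 0.31 and 0.91, 0.73, 0.87, gave 0.46 (SE 0.11, limma adjusted p = 0.015), and did not pass without siBach1 day 0 replicate 1 (0.053) or siControl day 0 replicate 1 (0.054). On each of the 4 mRNA probes the siBach1 arrays lay above the siControl arrays. The clone probe A_55_P2720695 gave 1.19 (SE 0.33, limma adjusted p = 0.031), but 0.78 (0.06) without siBach1 day 0 replicate 3, the array that stood apart, and also lost its call without siControl day 0 replicate 1 (0.11) or 2 (0.083). With slide 1 alone the main probe gave 0.67 (limma adjusted p = 0.021), and slide 2 held 1 array of each group.

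The Ptbp2 clone probe read -3.46, -3.32 and -3.62 in siControl at day 0 and -2.52, -2.50 and -2.70 in siBach1. It was 1.86-fold higher (log2 0.89, SE 0.12, limma adjusted p = 0.00065), or 0.48 higher on the log2 scale after the normexp correction. The mRNA probe of Ptbp2 gave -0.03 at day 0 (SE 0.10, limma adjusted p = 0.89). The main probe of Mbnl1 gave -0.42 (SE 0.14, limma adjusted p = 0.063), with every siBach1 array below every siControl array. With replicate number as a block, which the arrays' shared deviations allow, 12 member probes passed in place of 6, and 8165 probes in all in place of 5079. The added ones were both mRNA probes of Mbnl1 (adjusted p = 0.0087 and 0.015 in limma, the main one also 0.034 after quantile normalization and 0.032 after normexp) and the main probe of Rbm20 (0.046), which were lower, and the main probes of Mbnl2 (0.031) and Mbnl3 (0.046) and the Celf2 clone probe A_55_P2943476 (0.019), which were higher. That clone probe gave 0.75 without the block (0.094), and 0.43 (0.26) when siBach1 day 0 replicate 3 was left out. The 2 groups did not overlap for 12 member probes, against 37.3% of all probes. Without siBach1 day 0 replicate 3 the count that passed was again 6, beside 3603 probes in all. Of the 6, 5 were higher and 1 lower, the second Rbm20 probe at -0.51 (limma adjusted p = 0.011) in place of -0.35 (0.10).

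**Figure D3:**
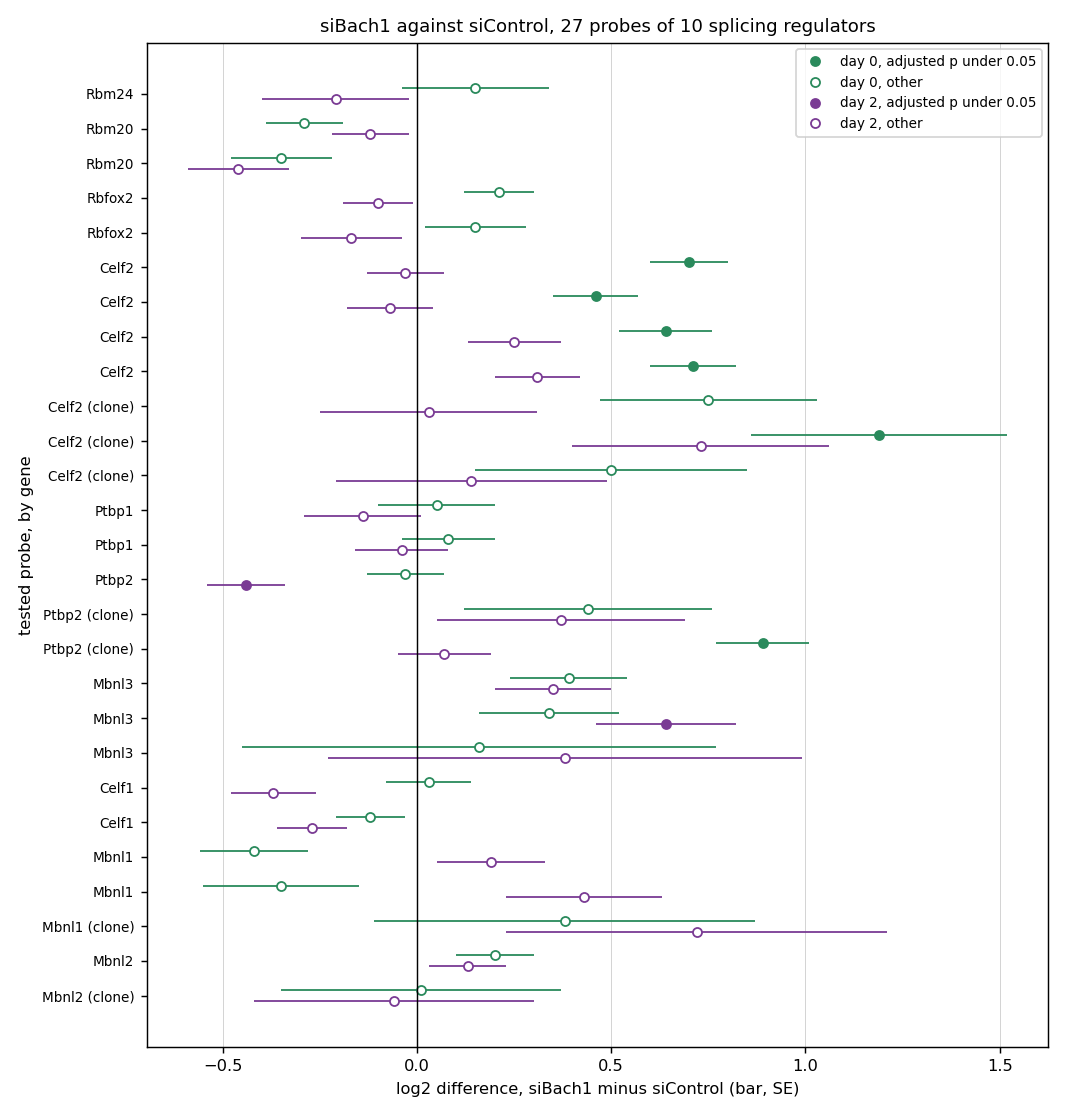
Log2 difference between siBach1 and siControl (x axis; bars, SE) of the 27 tested probes, by gene (y axis), at day 0 and day 2. Filled points passed at an adjusted p under 0.05. The 4 mRNA probes of Celf2 lie at 0.46 to 0.71 at day 0 and at -0.07 to 0.31 at day 2.

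**Figure D4:**
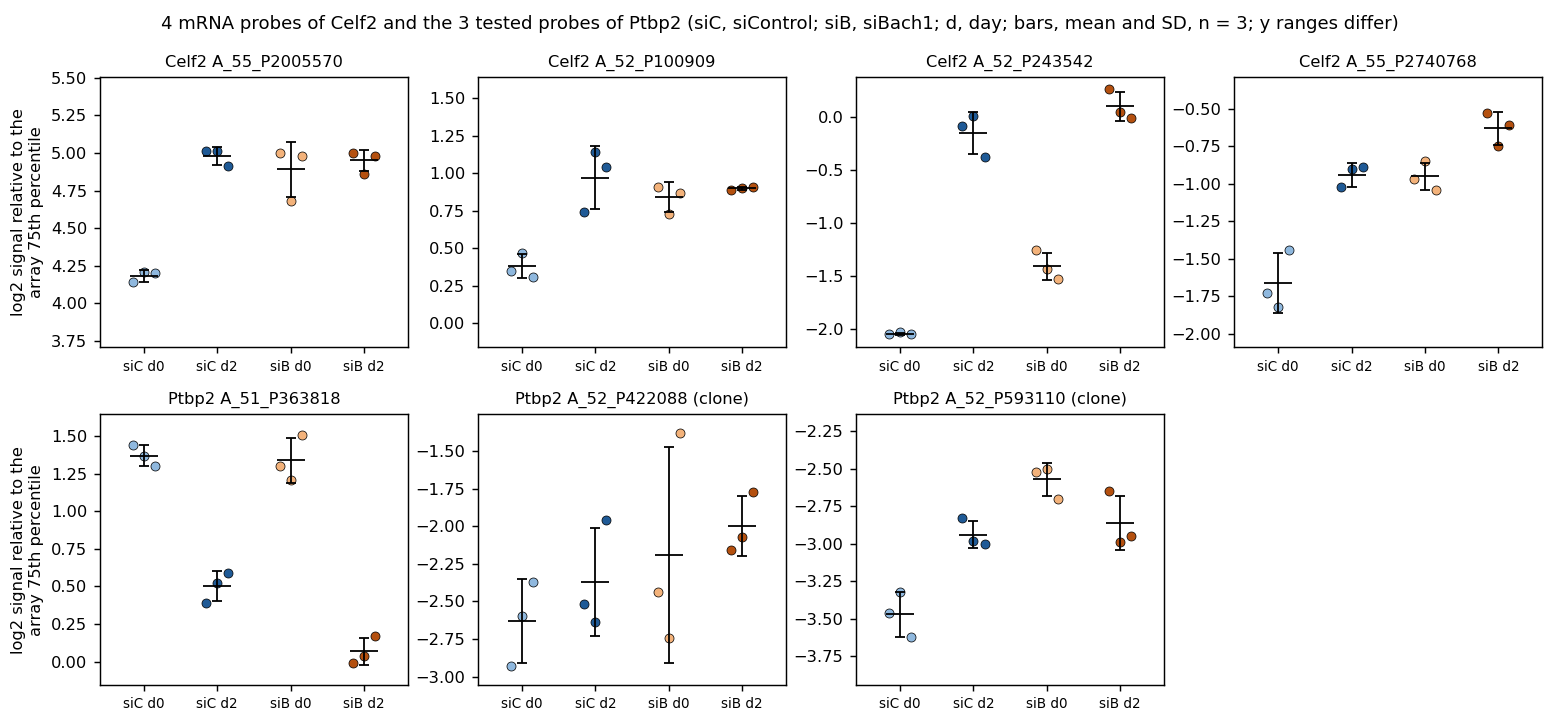
Signals of the 4 mRNA probes of Celf2 and of the 3 tested probes of Ptbp2 on the 12 arrays, as log2 relative to the array's 75th percentile (y axis, range differs between panels), by siRNA and day (x axis). Points are arrays, and bars are the mean and SD of 3 arrays. On each Celf2 probe siControl day 0 is lowest, and the Ptbp2 clone probe A_52_P593110 moves unlike the mRNA probe A_51_P363818.

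At day 2, 2 of the 27 member probes passed, against 12% of all probes, with 1 higher and 1 lower, against 5.75% and 6.26%. Neither changed 2-fold, as 2.17% of all probes did. The Ptbp2 mRNA probe was 1.35-fold lower in siBach1 (log2 -0.44, SE 0.10, limma adjusted p = 0.019), with every siBach1 array below every siControl array. Its call was lost without siBach1 day 2 replicate 1 (0.076) or 2 (0.058) or siControl day 2 replicate 3 (0.063). Mbnl3 was 1.55-fold higher on A_66_P140335 (log2 0.64, SE 0.18, limma adjusted p = 0.042), which read -3.91, -3.97 and -3.43 in siControl and -3.25, -3.25 and -2.91 in siBach1. That value was 0.17 after the normexp correction (adjusted p = 0.4), and 9 of the 12 fits without 1 array gave no call (adjusted p up to 0.13, the exceptions being those without siBach1 day 0 replicate 2 or 3 or siControl day 2 replicate 3). The brighter Mbnl3 probe gave 0.35 (SE 0.15, limma adjusted p = 0.16). The main probe of Celf1 gave -0.37 (SE 0.11, limma adjusted p = 0.055) and the second probe of Rbm20 -0.46 (SE 0.13, limma adjusted p = 0.05 when rounded, just above the limit). After normexp both passed (0.037 and 0.027), and after quantile normalization the Rbm20 probe did (0.025). With the replicate block, 6 member probes passed, and 6331 probes in all in place of 3563. These were the same 2 (adjusted p = 0.012 for Ptbp2 and 0.014 for Mbnl3 in limma) and both Celf1 probes (0.015 and 0.021), which were lower. The others were a Mbnl1 mRNA probe (0.0082) and a Celf2 clone probe (0.03), which were higher. Without siBach1 day 0 replicate 3, 5 passed, and 3980 probes in all. That fit added Celf1 (0.048), Rbm20 (0.011) and that Celf2 clone probe (0.048) at the same differences. The groups did not overlap for 9 member probes, against 32.8% of all. With the main scaling and no block, no probe of Rbm24, Rbm20, Rbfox2, Ptbp1, Celf1, Mbnl1 or Mbnl2 passed for silencing at either day. For Rbm24, Ptbp1, Rbfox2 and Mbnl2 the main-probe differences were -0.21 (SE 0.19), -0.14 (SE 0.15), -0.10 (SE 0.09) and 0.13 (SE 0.10) at day 2. In the same cells 6 of 11 muscle markers were lower in siBach1 (3 after quantile normalization and 8 with the replicate block), with -0.98 for Myog, the gene of myogenin (SE 0.21, limma adjusted p = 0.016).

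The silencing effect differed between the days for 2 member probes, both with a negative difference. Of all probes 4.59% passed, 2.39% as positive and 2.2% as negative, and 1.44% passed with a difference of at least 2-fold. For Celf2 on A_55_P2005570 the effect was 0.70 at day 0 and -0.03 at day 2, a difference of -0.73 (SE 0.14, limma adjusted p = 0.018), but 0.051 without siControl day 0 replicate 1, 0.093 with slide 1 alone and 0.11 without the filter on dim probes. The other mRNA probes of Celf2 gave -0.53, -0.39 and -0.40 (limma adjusted p = 0.075, 0.22 and 0.17). For the Ptbp2 clone probe the effect was 0.89 at day 0 and 0.07 at day 2, a difference of -0.82 (SE 0.16, limma adjusted p = 0.024). This was lost without any of 6 arrays (siControl day 0 replicates 1 and 3, siControl day 2 replicate 1, siBach1 day 0 replicate 2, siBach1 day 2 replicates 2 and 3), with adjusted p between 0.054 and 0.062. With the replicate block 5 member probes passed, and 3865 probes in all in place of 1361. The added ones were both mRNA probes of Mbnl1 (0.60 and 0.78, adjusted p = 0.019 and 0.0093 in limma) and a Rbfox2 probe (-0.32, adjusted p = 0.04). Without the block the Mbnl1 main probe had an adjusted p of 0.10 in limma, its silencing effect being -0.42 at day 0 and 0.19 at day 2.

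Other splicing genes were read with 1 probe a gene. In siControl cells, 16 of 27 tested tissue-type regulators passed between the days, with 6 higher and 10 lower and a median of -0.19. Over all probes 53.4% passed, 24.6% as higher and 28.7% as lower, with a median of 0.00, so that the share of this list was near that of all probes. Rbfox1, the muscle and neuronal paralog of Rbfox2, rose 25.1-fold (above background on 2 of 3 arrays at day 0), Qk, the quaking protein that promotes muscle exons, 2.30-fold and Rbm38 1.75-fold. Rbpms2, known from smooth muscle precursors, fell 3.24-fold, Matr3, a partner of Ptbp1, 1.92-fold and Fubp1 1.81-fold. General factors fell. Of 21 SR and SR-related proteins, which bind exonic enhancers, 16 were lower and 2 higher (median -0.85). Srsf7, Srsf10 and Srsf2 fell 3.28-fold, 3.02-fold and 2.77-fold, and the kinases Srpk3 and Srpk2 rose, Srpk3, a muscle-specific kinase of SR proteins, 53.5-fold. Of 23 hnRNP proteins 20 were lower and none higher (median -0.61), led by Hnrnpa2b1, Hnrnpll and Hnrnpab at 2.43-fold, 2.28-fold and 2.24-fold. Of 32 core spliceosome genes 29 were lower (median -0.77), Snrpa1 by 2.83-fold, while Snrpn rose 1.28-fold. In siBach1 cells the same lists had 9 of 27, 17 of 21, 22 of 23 and 29 of 32 genes lower, against 32.3% of all probes. The share of the tissue-type regulators was again near that of all probes. Quantile normalization and the normexp correction kept the sign of these 4 medians.

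Genes whose exons the members are known to control mostly rose. Of 19 tested, 15 were higher and 2 lower in siControl (median 1.48). Of all probes 24.6% were higher and 28.7% lower, and these shares also stand beside the marker counts below. Cacna1s was 52.9-fold, Tnnt3 52.2-fold and Atp2a1 15.9-fold higher. These are the genes of the muscle calcium channel, fast troponin T and the sarcoplasmic calcium pump. Camk2d fell 1.48-fold and Pkm, the pyruvate kinase whose exon choice Ptbp1 controls, 1.46-fold. These are totals of transcripts, not of their forms. For Tpm1, 3 of its 4 tested probes were higher and 1 lower, from -2.07 to 2.15, and for Dlg4, an exon target of Ptbp proteins, 1 of 2 was higher (0.73) and 1 lower (-0.87). Among the markers, all 11 tested muscle genes rose (median 4.68) and all 10 cell cycle genes fell (median -2.08). Of 5 tested adipocyte markers 2 rose and 1 fell, of 5 osteoblast markers 2 rose and 1 fell, of 4 neuronal markers 2 rose and 2 fell, and of 4 blood and endothelial markers 2 fell. The summed level of the neuronal markers, a tissue in which Ptbp2 and Celf2 are high, was 6.10 to 6.36 in siControl and 6.19 to 6.35 in siBach1 at day 0, and 5.72 to 5.84 and 6.32 to 6.42 at day 2. By this sum, in which the brightest probes weigh most, the siControl arrays of day 2 were the lowest. The part of these markers in the results was not tested.

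**Figure D5:**
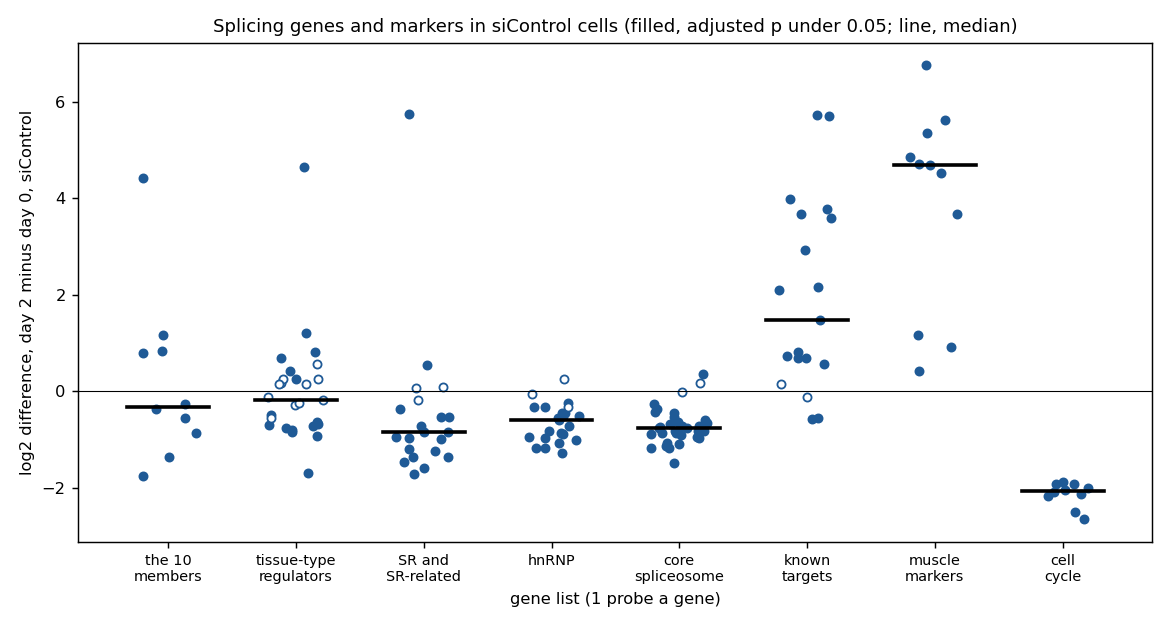
Log2 difference between day 2 and day 0 in siControl cells (y axis) of the 10 main probes and of the genes of 7 lists (x axis; 1 probe a gene). Points are genes, filled where the adjusted p was under 0.05, and lines are medians. The SR, hnRNP and core spliceosome lists lie mostly below 0, with medians of -0.85, -0.61 and -0.77, while Srpk3 stands at 5.74 and the known targets have a median of 1.48.

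Under silencing, the medians of the splicing lists lay between -0.22 and 0.13, and 17.1% of all probes passed at day 0 and 12% at day 2. At day 0, Matr3 was 3.71-fold lower and Rbpms 1.64-fold lower in siBach1 (limma adjusted p = 6.6e-06 and 0.0085), and Rbm47 and Fxr1 were 2.10-fold and 1.26-fold higher. At day 2 Matr3 was 1.77-fold and Khdrbs3 1.76-fold lower, and Rbm47 1.73-fold higher. The effect on Matr3 changed by 1.07 between the days, that on Khdrbs3 by -1.04 and that on Qk by -0.83 (limma adjusted p = 0.0089, 0.011 and 0.018). Of 32 core spliceosome genes, 5 were lower in siBach1 at day 2, Snrpb by 1.39-fold and Snrpa1 by 1.36-fold, beside 6.26% of all probes. Of 23 hnRNP genes 5 were lower at day 2, Pcbp2 by 1.48-fold and Hnrnpa1 by 1.38-fold. After quantile normalization 4 core spliceosome and 3 hnRNP genes were lower, with a median of -0.1 for each list. With the replicate block 16 and 8 were lower. The block also raised the calls over all probes from 3563 to 6331 of 29664, of which 45.8% were higher.

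Genes with the most similar pattern were sought by Pearson correlation over the 12 arrays, among the 21622 named probes that no array had near background. These arrays fall into 2 days, so that any gene that changed with day correlates, and the values describe the arrays with no test. Rbm24 was nearest to Prkag3, Slc7a7 and Gm7325 (r = 0.999 each), Rbm20 to Large, Ccnt2 and Fstl1 (0.994 to 0.995), and Rbfox2 to Prkaca, Dmpk and Klc4 (0.985 to 0.988). Ptbp1 was nearest to Pop1, Grwd1 and Prpf4 (0.998 to 0.999), Mbnl3 to Fbxo42, Rap2a and Dlg5 (0.992 to 0.994), and Ptbp2 to Enkd1, Tmem128 and Setd6 (0.993 to 0.995). Celf1 reached 0.992 with Prelid1. Celf2 and Mbnl1, whose groups did not split by day, reached 0.975 with Cstf2t and 0.958 with Rapgef2. Mbnl2, whose days also overlapped, reached 0.987 with Creg1.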

How the data were processed

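Total RNA of 12 samples was hybridized to 12 arrays (1-colour, Cy3, Agilent). The deposited scanner files hold, per the file headers, processed signal intensity after background subtraction, with flags. The submitters' processing notes name Agilent Feature Extraction 9.1, while the file headers give a later version. The authors also deposited a table of log2 values normalized to the 75th percentile and centred on each probe's median, which served for names and as an alternative and differed from the values computed here, centred likewise by probe and by array, by a median of 0.00043. No column was left unmapped.

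Control spots and 76 to 110 outlier spots per array were removed, intensities were taken to log2, spots of a probe were averaged and the 75th percentile of the array was subtracted. Depth has no counterpart on arrays, where the number of arrays limits precision. One model with 4 groups and no block was fitted in limma 3.58.1 (R 4.3.3) to the 29664 of 56605 probes kept, with 5 contrasts and Benjamini-Hochberg adjustment over all of them. The script was tested on simulated data. Residuals of arrays with the same replicate number, which share a slide, correlated in 18 of 18 pairs (r between 0.142 and 0.595). All were above the limit of 0.1 for treating them as paired. The main fit did not use this pairing, so its p-values and counts leave it out. A fit with a replicate block was run as an alternative.

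All probes of the 10 genes are accounted for. In gene lists, the probe with the highest mean signal stands for a gene, and up to 3 genes with the largest rise and fall between days and up to 2 for each silencing comparison are named, among those that passed. Tpm1 and Dlg4 were named after their values were seen. Mymk was read under its older name Tmem8c. The members and lists were chosen with earlier results of these data known. Alternatives were quantile normalization, normexp (offset 50) on median signals, the authors' values, other filters, replicate or slide as a block, slide 1 alone, only the arrays compared, a robust trended prior, the methods' t-test, and leaving out each array. Python 3.11.15, pandas 2.3.3 and numpy 2.4.6 were used. Promoters came from RefSeq (GRCm38.p6). The scanner files name an older build, so no probe coordinates are given.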

Additional observations from a re-analysis of the deposited data

Results flagged for a closer look

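The silencing effect was not the same at day 0 and day 2 for 2 member probes, by the test of the difference itself. For Celf2 on A_55_P2005570 the effect at day 2 minus that at day 0 was -0.73 (limma adjusted p = 0.018), and for the Ptbp2 clone probe A_52_P593110 it was -0.82 (limma adjusted p = 0.024). In both, siControl at day 0 was the lowest group, and in both the call was lost on slide 1 alone (adjusted p = 0.093 for each). Without 1 array, the call of the Ptbp2 clone probe was lost in 6 of 12 fits and that of the Celf2 probe in 1. After normexp the Ptbp2 clone probe gave -0.50 (limma adjusted p = 0.024). The other mRNA probes of Celf2 gave -0.53, -0.39 and -0.40 and did not pass (limma adjusted p = 0.075, 0.22 and 0.17). The Ptbp2 mRNA probe gave -0.41 (limma adjusted p = 0.12). The test was made on 29664 probes, of which 1361 (4.59%) passed, and on 27 member probes, of which these 2 (7.41%) passed.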

How the results depend on the processing

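Of the 47 calls of member probes, 34 passed under every alternative and every left-out array, and none changed sign. The counts between days stayed within 1.5 times: 22 in siControl (18 to 22 without 1 array, 18 to 23 otherwise) and 15 in siBach1 (13 to 18, and 12 to 19). The silencing counts moved more. At day 0 the 6 member probes and 5079 probes in all became 12 and 8165 with the replicate block and 12 and 8305 with slide as a block. All probes were 2480 without the filter on dim probes and 3129 or 8354 with the methods' t-test after Benjamini-Hochberg or unadjusted, and without 1 array the counts were 4 to 8 and 3237 to 5286. At day 2 the 2 member probes and 3563 probes in all became 6 and 6331 with the replicate block, 7 and 6457 with slide as a block, 0 and 1305 without the filter, 0 and 2073 with only the arrays compared, and 0 and 1097 or 7 and 7192 with the t-test. Members were 4 on slide 1 alone and 4 among probes above background on all 12 arrays, and without 1 array the counts were 0 to 5 and 1813 to 3980. For the difference between days, 2 and 1361 became 5 and 3865 with the replicate block, 7 and 4060 with slide as a block, 1 and 2142 with a robust trended prior, 0 and 49 without the filter, and 0 and 112 on slide 1 alone, and without 1 array they were 0 to 2 and 479 to 1131. The t-test and the fit of only the arrays compared give no value for this difference. Of its calls over all probes 52.0% were higher. This was 64.8% after quantile normalization, 69.4% without the filter and 70.5% on slide 1 alone, but 42.8% after normexp, 41.7% with the robust prior, 39.6% with the replicate block and 38.3% with slide as a block, so that the balance has no settled direction. Beside the calls named in the text, the replicate block changed no other call of a member probe. Normexp shrank each difference that had passed for Mbnl3 A_66_P140335 and Ptbp2 A_52_P593110. No array had either probe near background. Some settings also had fewer arrays. The cause of these moves was not tested.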
